A study of Mus musculus with 12 samples.

Results

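The sites described here are 4838 poly(A) site clusters of mouse embryonic stem cells whose listed polyadenylation signal, AATAAA, lies 31 to 60 nt from the site. They were chosen by the listed hexamer and its listed distance from 145099 clusters outside the mitochondrial chromosome (145179 with it). They make up 7.42% of the 65222 clusters listed with AATAAA. The sites set against them are the 51959 clusters with AATAAA at 15 to 30 nt, the range that holds 79.7% of AATAAA sites. Shorter comparisons use the 1750 clusters with ATTAAA at 31 to 60 nt and the 2241 clusters with AATAAA at 61 to 100 nt.

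The cells were Exosc3 conditional knockout (CKO) clones derived from V6.5 embryonic stem cells. The number of clones is not stated in the sources used here. Exosc3 is a subunit of the exosome core, the complex that degrades nuclear RNA from its 3′ end. All 6 groups of 2 libraries carried the CKO genotype. The dox+ groups stayed in 0.1 μg/ml doxycycline, with Exosc3 present, and the dox- groups were taken off it, with Exosc3 lost. A dox+ and a dox- group were kept so for 3 days. The other 4 groups, 2 days in dox+ or dox-, were nucleofected with 15 μM of an antisense morpholino oligonucleotide (AMO), either U1 AMO against the U1 snRNA or the scrambled Scr AMO, 8 hours before RNA was taken. The 3′ ends of poly(A) RNA were read by 2P-seq, which starts its reads at the poly(A) tail.

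The values are a catalogue for the whole series in mm9 coordinates, with position, strand, hexamer and hexamer distance for each cluster. Of its 7 columns, 0 hold a value per library, so depth, the level of a site in any group and the effects of Exosc3 loss or U1 AMO were not analysed here. Differences were therefore measured on each of the 19 autosomes. A chromosome is no biological replicate, and the p-values say how evenly a difference held along the genome, not how it would repeat in other cultures.

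Messenger RNA 3′ ends are made by cleavage of the nascent transcript followed by addition of the poly(A) tail. The signal, AAUAAA in RNA, is bound by subunits of the cleavage and polyadenylation specificity factor, and a downstream U- or GU-rich element is bound by cleavage stimulation factor. Cleavage usually falls a short way downstream of the signal, so a signal farther off is outside its usual place. One gene often holds several sites, and the site that is used sets the length of the 3′ end of the transcript. The signals that define the sets compared here are shown whole, in capitals, so that their single difference, at the second base, can be seen.
canonical signal: AATAAA
main variant signal: ATTAAA

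Sites with AATAAA were most frequent at the near end of the range, with no step at its borders. There were 778 sites at 30 nt and 588 at 31 nt, and 71 at 60 nt and 70 at 61 nt. The range held 321.6 sites per nt at 31 to 40 nt, 98.3 at 41 to 50 nt and 63.9 at 51 to 60 nt, against 56.0 at 61 to 100 nt. The median distance was 36 nt (quartiles 33 and 44 nt), so most of these sites lie at the near end. Distances chose the sites, so these counts describe the set and were not tested. ATTAAA sites numbered 109.9 per nt at 31 to 40 nt and 26.1 at 51 to 60 nt. AATAAA made up 35.1% of all 13769 clusters with any hexamer at 31 to 60 nt and 55.6% of the 93471 at 15 to 30 nt.

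The distance was counted from a base inside the cluster, as pairs of sites that use the same AATAAA show. In 296 pairs of adjacent AATAAA sites within 80 nt, a cluster of up to 2 nt, which fixes the place of its AATAAA, lay beside a cluster of 15 nt or more. If both used that AATAAA, the base from which the wide cluster's distance was counted fell inside the wide cluster in 199 pairs. It fell outside by up to the cluster's own width in 11 pairs and by more in 86, as 2 different AATAAA would give. Within the 199, its place ran from the 5′ part to the 3′ part of the cluster. Its median was 0.423 of the way from the 5′ edge to the 3′ edge (quartiles 0.268 and 0.703). A cluster of some width therefore has bases nearer to and farther from the signal than the listed distance. Counted from the midpoint, 55.2% of the 4838 clusters reached to 30 nt or less with their 5′ edge, 72.4% of those listed at 31 to 40 nt and 8.92% of those at 51 to 60 nt. For 1488 clusters (30.8%) no choice of base brings the 5′ edge to 30 nt or less.

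Wherever a neighbouring site lay 6 to 100 nt downstream of a known AATAAA, it was listed with AATAAA, never farther off than the known one. Of 174 sites that lay 6 to 100 nt downstream of the AATAAA of one of the 4838 sites, 174 were listed with AATAAA and 0 with another hexamer or none, which allows a share of up to 1.72%. Over all AATAAA sites this held for 2233 of 2233 sites, with a limit of 0.134%, and in 0 of them was the listed AATAAA farther off than the known one. How many of these sites had a second AATAAA or another hexamer in reach is unknown. The counts and limits therefore include sites where no other listing may have been possible. ATTAAA came next. Of 1131 sites 6 to 100 nt downstream of a known ATTAAA, 861 were listed with ATTAAA, 270 with AATAAA and 0 with any other hexamer.

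A listing of AATAAA at 31 to 60 nt thus says that no nearer AATAAA was listed, and leaves variant hexamers nearer to the site unrecorded. In 2 of the 4838 clusters (0.0413%) such a hexamer can be read from the catalogue, because a site farther downstream was listed with it. The same held for 1 of 51959 clusters at 15 to 30 nt (0.00192%) and for 40 of 2241 at 61 to 100 nt (1.78%). These shares were not tested. Of the 2 clusters, a cluster of 1 nt on the plus strand of chromosome 5 at 130237773 was listed with AATAAA at 53 nt. A site downstream, from 130237825 to 130237832, was listed with TATAAA at 81 nt, which puts that TATAAA 22 to 29 nt upstream of the first site. The other, on the plus strand of chromosome 18, was listed with AATAAA at 57 nt and had an ATTAAA 18 to 30 nt upstream of it. These sites were named after their values were seen. How many more have a variant hexamer in the usual place was not analysed here, because no mm9 sequence was used.

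Some of these sites had an AATAAA whose implied place matched that of another site. A signal was called shared where the places of AATAAA implied for 2 sites of a strand came within 2 nt, allowing for any base of either cluster. This held for 289 of 4838 sites, or 5.97% (95% Wilson interval 5.34 to 6.68%), against 1244 of 51959 sites at 15 to 30 nt, or 2.39% (Wilson 2.27 to 2.53%). The difference was not tested over autosomes. Of the 289 sites, 183 shared with a site upstream, 109 with a site downstream and 3 with both. Sharing with a site downstream was about as frequent in both sets, 2.25% against 2.35% at 15 to 30 nt. Sharing with a site upstream was 3.78% against 0.0462%, and a site close to its signal leaves little room for one between.

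**Figure D1:**
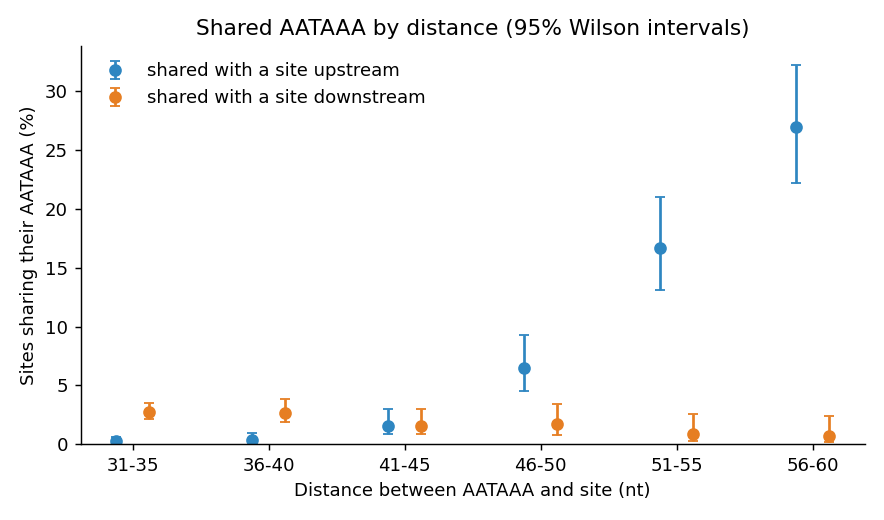
Share of AATAAA sites (%) whose signal was also listed for a site upstream (blue) or downstream (orange), by distance between AATAAA and site in bins of 5 nt, with 95% Wilson intervals as bars. Sharing with a site upstream goes from 0.276% at 31 to 35 nt to 26.9% at 56 to 60 nt, while sharing with a site downstream goes from 2.76% to 0.673%.

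Of the sites at 51 to 60 nt, 21.4% had another site nearer to the same AATAAA (Wilson 18.4 to 24.8%), against 0.311% at 31 to 40 nt (Wilson 0.169 to 0.571%). In the 184 pairs with a partner upstream, the partner lay at a median of 19 nt from the AATAAA (quartiles 16 and 22 nt) and the farther site at 55 nt (quartiles 50.75 and 58 nt). The partner was at 15 to 30 nt in 141 pairs, or 76.6%. The gap between the clusters had a median of 27 nt (quartiles 24 and 30 nt). The nearer cluster was the wider in 106 of these pairs and the narrower in 69. Room for a second cluster between signal and site grows with distance, so the rise of sharing with distance was given no test.

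Sites at the near end shared with sites still farther down. In the 109 pairs with a partner downstream, the member lay at a median of 35 nt (quartiles 32 and 39 nt) and the partner at 86 nt (quartiles 77 and 94 nt). Here the member was the wider cluster in 76 pairs and the narrower in 30. ATTAAA sites at 31 to 60 nt shared their ATTAAA in 96 of 1750 sites or 5.49% (Wilson 4.51 to 6.65%), and in 18.01% at 51 to 60 nt (Wilson 13.8 to 23.1%), where AATAAA sites reached 21.9% (Wilson 18.9 to 25.3%). At 61 to 100 nt 56.0% of AATAAA sites shared their signal (Wilson 53.9 to 58.0%).

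When sites with a shared signal were set aside, the count per nt was lower in each range than in the one before. It was 311.9 at 31 to 40 nt, 93.1 at 41 to 50 nt, 49.9 at 51 to 60 nt and 24.65 at 61 to 100 nt. The nearly level counts beyond 50 nt were thus a sum of sites with a signal of their own, which became fewer, and of sites with a shared signal, which became more.

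**Figure D2:**
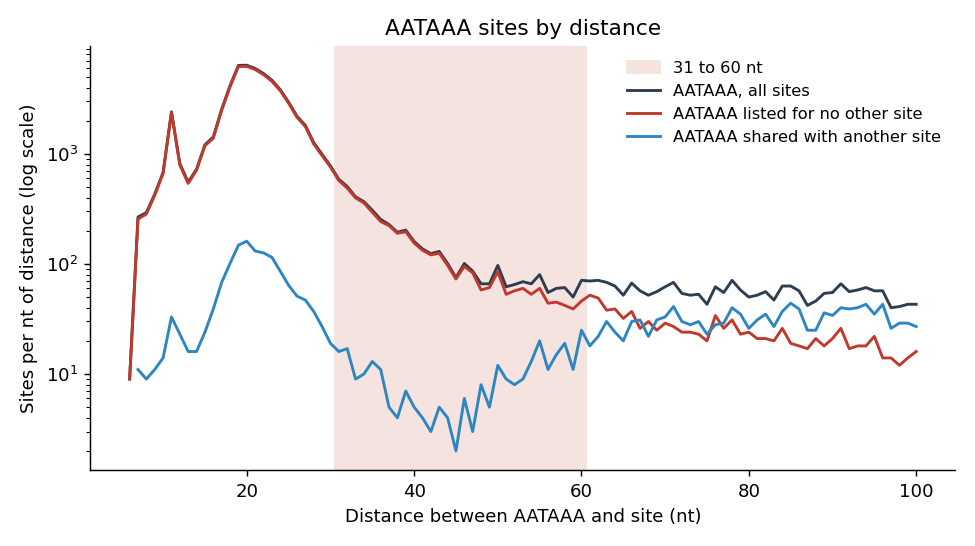
Number of AATAAA sites at each distance in nt (log scale), for all sites, for those whose AATAAA was listed for no other site and for those that share it, with 31 to 60 nt shaded. Sites with a signal of their own go from 572 at 31 nt to 46 at 60 nt, and shared sites from 16 to 25 with a low of 2 at 45 nt.

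Named sites were the widest of each kind. On the minus strand of chromosome 14 a cluster from 62251020 to 62251103, 84 nt wide, was listed with AATAAA at 58 nt. A cluster of 6 nt, from 62251133 to 62251138, lay 29 nt upstream of it and was listed with AATAAA at 18 nt, called the same one. This is the arrangement of the 184 pairs with a partner upstream, mostly a second end downstream of an end in the usual place. On chromosome 1 (plus strand) a cluster of 71 nt, from 133828878 to 133828948, was listed with AATAAA at 33 nt. A cluster of 12 nt downstream, from 133828975 to 133828986, was listed with AATAAA at 87 nt, called the same one. Counted from any base of the narrower cluster, that AATAAA falls between the edges of the wide cluster. The call allowed any base of the wide cluster, so here it shows only that the listed distances are compatible with a common AATAAA.

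Among sites with a signal of their own and a neighbour within 2 kb, the widest spanned 246 nt, on chromosome 17 (plus strand) from 36029436 to 36029681, with AATAAA at 60 nt. The next was 214 nt wide, on chromosome 2 (plus strand) from 58477910 to 58478123, with AATAAA at 52 nt. Among those with no neighbour, a plus-strand cluster on chromosome 8 from 35041231 to 35041373 spanned 143 nt with AATAAA at 34 nt, and its nearest neighbours lay 9271 nt upstream and 18209 nt downstream. A plus-strand cluster on chromosome 9 from 59163897 to 59164012 spanned 116 nt with AATAAA at 57 nt. In each of these 4 clusters, and in the clusters of 84 and 71 nt, the width exceeds the listed distance. The genes at these places were not analysed here, because no annotation of mm9 was used.

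The clusters at 31 to 60 nt were wider than those at 15 to 30 nt. The median was 16 nt (quartiles 5 and 28 nt), against 10 nt (quartiles 4 and 20 nt). Clusters over 25 nt made up 29.99% (Wilson 28.7 to 31.3%), against 17.5% (Wilson 17.2 to 17.9%). Mean log2 width was 3.57 ± 0.16 (SD over 19 autosomes) against 3.12 ± 0.067, a difference of 0.45 ± 0.14 with the same sign on 19 of 19 autosomes (sign-flip permutation, adjusted p = 2.37e-05). Among sites with a signal of their own it was 0.50 ± 0.15, on 19 of 19 (sign-flip permutation, adjusted p = 2.37e-05). The distance is counted from inside the cluster, so width and listed distance are not fully independent measures. The part of this link in the difference was not tested. For members at 46 to 60 nt alone it was 0.22.

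The share of very narrow clusters showed no difference past the threshold. A width of 1 nt was found in 9.24% ± 2.46 (SD over 19 autosomes) at 31 to 60 nt and in 9.66% ± 0.822 at 15 to 30 nt, a difference of -0.422 percentage points ± 2.82 that did not pass the test (sign-flip permutation, adjusted p = 0.579).

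Width changed within the range. The median was 17 nt at 31 to 40 nt, 20 nt at 41 to 50 nt and 10 nt at 51 to 60 nt. Clusters of 1 nt made up 13.15% at 51 to 60 nt (Wilson 10.7 to 16.0%) and 8.27% at 31 to 40 nt (Wilson 7.37 to 9.27%). Clusters over 50 nt made up 8.92% (Wilson 6.95 to 11.4%) and 5.91% (Wilson 5.14 to 6.78%). The mean log2 width was lower at 51 to 60 nt by 0.46 (difference -0.46 ± 0.34, SD, lower on 16 of 19 autosomes, sign-flip permutation, adjusted p = 0.000155). Among sites with a signal of their own the difference was -0.28 (sign-flip permutation, adjusted p = 0.0145). Against AATAAA at 61 to 100 nt the sites at 31 to 60 nt were wider by 0.62 ± 0.19 on the log2 scale, on 19 of 19 autosomes (sign-flip permutation, adjusted p = 2.37e-05). Against ATTAAA at 31 to 60 nt the difference was 0.069 ± 0.28, positive on 10 of 19 (sign-flip permutation, adjusted p = 0.386), with a median of 16 nt in both sets.

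**Figure D3:**
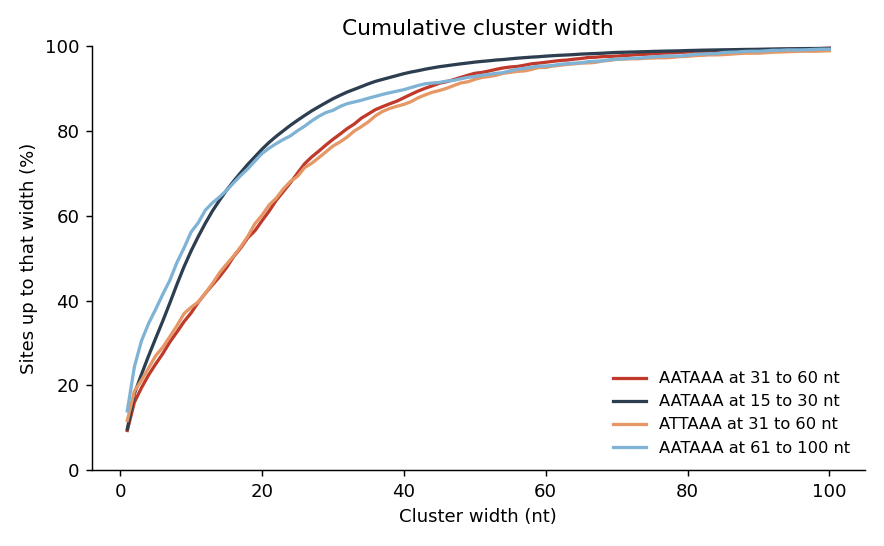
Share of clusters (%) up to each width in nt for the 4 sets of sites. The curves of AATAAA and ATTAAA at 31 to 60 nt run together with medians of 16 nt, and the curve of AATAAA at 15 to 30 nt lies above them, with 51.7% of its clusters up to 10 nt wide against 37.1% at 31 to 60 nt.

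Another site of the strand close upstream was more frequent over all sites at 31 to 60 nt. The difference did not pass once sharing sites, many of which have such a neighbour, were set aside. Another site lay upstream within 100 nt for 11.5% ± 2.22 (SD over 19 autosomes) at 31 to 60 nt and for 8.15% ± 0.603 at 15 to 30 nt. The difference was 3.34 percentage points ± 2.18, on 18 of 19 autosomes (sign-flip permutation, adjusted p = 6.33e-05). It was 0.411 for sites at 31 to 45 nt (sign-flip permutation, adjusted p = 0.579) and 13.4 for sites at 46 to 60 nt, and these values were not tested against each other. For clusters of up to 3 nt it was 6.18. Of the 548 sites with such a neighbour, 183 shared their AATAAA with a site upstream and so have one close by through the definition of sharing. Where the signal was listed for no other site, the shares were 7.58% ± 1.71 and 7.92% ± 0.647, a difference of -0.335 ± 1.77 that was negative on 10 of 19 autosomes and did not pass (sign-flip permutation, adjusted p = 0.531). Among the sharing sites set aside, 70.2% at 31 to 60 nt and 17.9% at 15 to 30 nt had a site upstream within 100 nt. Their removal lowers the first share more by construction, so the value without them is no separate test.

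The signal of the neighbour was AATAAA in differing shares on either side. Neighbours upstream were listed with AATAAA in 292 of 548 cases, or 53.3%, against 35.1% of 4234 at 15 to 30 nt, and neighbours downstream in 56.6% of 447 against 70.9% of 3632. Without the sites that share, the shares with AATAAA were 29.6% of 345 against 35.2% of 4011 upstream and 43.99% of 316 against 56.1% of 2410 downstream. A partner in sharing is listed with AATAAA by construction, and these shares were not tested.

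A site downstream within 100 nt was more frequent in both views. It was present for 9.565% ± 2.00 against 7.03% ± 0.556, a difference of 2.53 percentage points ± 2.02, on 18 of 19 autosomes (sign-flip permutation, adjusted p = 0.000114). It was 1.39 with neighbours within 50 nt, and 1.40 for clusters of up to 3 nt, where it did not pass (sign-flip permutation, adjusted p = 0.0634). Without the sites that share it was 2.35 ± 1.47, with 7.11% against 4.76%, on 17 of 19 autosomes (sign-flip permutation, adjusted p = 7.6e-05). Of the sharing sites set aside, 45.3% at 31 to 60 nt and 98.2% at 15 to 30 nt had a site downstream within 100 nt. Setting them aside lowers both shares by construction, so the value without them is no separate test. A site on the opposite strand within 1 kb was found for 13.2% ± 3.21 and 12.9% ± 2.56, a difference of 0.321 ± 2.29 that did not pass (sign-flip permutation, adjusted p = 0.582).

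The share of sites that stood alone showed no difference past the threshold from that at 15 to 30 nt. No other site of the strand within 2 kb was found for 39.95% ± 3.26 of sites at 31 to 60 nt and 41.6% ± 1.74 at 15 to 30 nt. The difference of -1.64 percentage points ± 3.13 was negative on 14 of 19 autosomes and just missed the threshold (sign-flip permutation, adjusted p = 0.0531). It depended on the reach, with -4.93 at 0.5 kb (sign-flip permutation, adjusted p = 2.11e-05) and 0.924 at 5 kb. Among sites with a signal of their own it was -0.0203 ± 3.18 (sign-flip permutation, adjusted p = 0.978). There it was -2.59 at 0.5 kb and 2.13 at 5 kb, both past the threshold (sign-flip permutation, adjusted p = 0.000348 and 0.00474). Sharing sites never stand alone, so setting them aside shifts these values by construction.

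Within the range, sites at 51 to 60 nt stood alone in 38.1% of cases and those at 31 to 40 nt in 39.5%, pooled over autosomes, a difference of -1.61 percentage points ± 10.3 over autosomes (sign-flip permutation, adjusted p = 0.579). With a reach of 0.5 kb it was -7.22 and passed (sign-flip permutation, adjusted p = 0.0202). Among sites with a signal of their own, the difference at 2 kb was 8.02 in favour of the far end (sign-flip permutation, adjusted p = 0.00542), with shares of 49.7% (Wilson 45.3 to 54.1%) and 41.1% (Wilson 39.4 to 42.8%) over all chromosomes. Sites that share a signal have a neighbour by definition, so they count among those that do not stand alone. They made up 21.9% at 51 to 60 nt and 3.02% at 31 to 40 nt. Setting them aside raises the far share more by construction, so the value of 8.02 is no separate test.

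Sites at 31 to 60 nt ended a run of neighbouring sites less often than sites at 15 to 30 nt. Runs joined sites of a strand with gaps of at most 2 kb, and 2875 of the 4838 sites lay in runs of 2 or more, with a median of 4 sites. Of sites in runs, 31.4% ± 4.33 were the most downstream at 31 to 60 nt, against 37.8% ± 1.63 at 15 to 30 nt. The difference was -6.37 percentage points ± 4.86, negative on 18 of 19 autosomes (sign-flip permutation, adjusted p = 2.37e-05). It was -7.51 ± 5.46 among sites with a signal of their own (sign-flip permutation, adjusted p = 2.37e-05). A site that shares with one downstream cannot end a run. Of the sharing sites set aside, 27.0% at 31 to 60 nt and 1.37% at 15 to 30 nt ended one. The second value is therefore no separate test. The difference over all sites did not pass at 46 to 60 nt (-3.64, sign-flip permutation, adjusted p = 0.0842) or for clusters of up to 3 nt (-5.15, sign-flip permutation, adjusted p = 0.0606).

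The most upstream place of a run was taken by 28.2% ± 4.38 of sites in runs, against 25.03% ± 1.24. The difference of 3.20 percentage points ± 3.83 was positive on 17 of 19 autosomes (sign-flip permutation, adjusted p = 0.00296). This call was lost with runs joined at 0.5 kb (0.280, adjusted p = 0.827), with the plus strand alone (2.89, adjusted p = 0.098) and with clusters of up to 3 nt (2.56, adjusted p = 0.392), all by the permutation test. For sites at 46 to 60 nt the direction turned (-2.02, sign-flip permutation, adjusted p = 0.386), while at 31 to 45 nt it was 4.81. With runs joined at 5 kb it was 1.66. For sites with a signal of their own it was 5.26 ± 4.63, on 18 of 19 autosomes (sign-flip permutation, adjusted p = 0.000253). Setting sharing sites aside shifts this value by construction, since a site that shares with one upstream cannot be the most upstream. Of the sharing sites, 14.5% at 31 to 60 nt and 35.5% at 15 to 30 nt were the most upstream. The larger value is therefore no separate test of the difference.

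**Figure D4:**
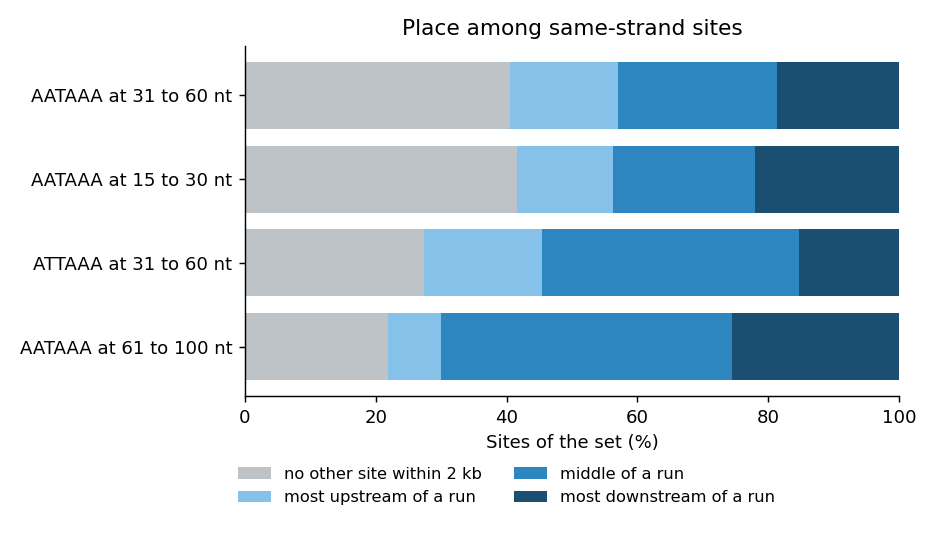
Share of sites (%) in each of 4 sets that have no other same-strand site within 2 kb or that lie most upstream, in the middle or most downstream of a run. AATAAA sites at 31 to 60 nt and at 15 to 30 nt have no neighbour in 40.6% and 41.6% of cases, ATTAAA sites at 31 to 60 nt in 27.4% and AATAAA sites at 61 to 100 nt in 21.9%.

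At the same distance, AATAAA and ATTAAA sites differed in their place among neighbouring sites. Sites without a neighbour were more frequent for AATAAA than for ATTAAA at 31 to 60 nt by 12.3 percentage points ± 6.28 (SD, on 19 of 19 autosomes, sign-flip permutation, adjusted p = 2.37e-05). In runs, the most downstream place was held by 31.4% of AATAAA and 21.0% of ATTAAA sites, a difference of 10.4 percentage points ± 6.71, on 19 of 19 autosomes (sign-flip permutation, adjusted p = 2.37e-05). That difference was 4.66 with runs joined at 0.5 kb, and did not pass for clusters of up to 3 nt (6.003, sign-flip permutation, adjusted p = 0.112).

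Against AATAAA at 61 to 100 nt, the sites at 31 to 60 nt stood alone more often by 18.5 percentage points ± 4.74 (SD, on 19 of 19 autosomes, sign-flip permutation, adjusted p = 2.37e-05). The difference was 30.3 at 0.5 kb and 12.02 at 5 kb. Sharing was 5.97% in the one set and 56.0% in the other, and a site that shares has a neighbour. When shared signals were set aside the direction turned, with 42.6% ± 3.24 alone at 31 to 60 nt and 49.4% ± 11.1 at 61 to 100 nt, a difference of -6.82 ± 10.1 that was negative on 14 of 19 autosomes (sign-flip permutation, adjusted p = 0.0157). No sharing site stands alone in either set, so setting them aside raises the second share more by construction. The turned sign is therefore no separate result.

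The most downstream place of a run was held by 31.4% and 33.4% of their sites in runs, a difference of -1.99 ± 7.97 (sign-flip permutation, adjusted p = 0.386). With runs joined at 0.5 kb it was -10.9 (sign-flip permutation, adjusted p = 9.5e-05). Here too the sign turned without the sites that share, with 31.9% ± 5.03 against 26.1% ± 5.41, a difference of 5.72 ± 7.59 on 15 of 19 autosomes (sign-flip permutation, adjusted p = 0.00362). All 1255 sharing sites at 61 to 100 nt shared with a site upstream, and 35.4% of them were the most downstream. Setting them aside shifts this share by construction, so the turned sign is no separate result.

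**Figure D5:**
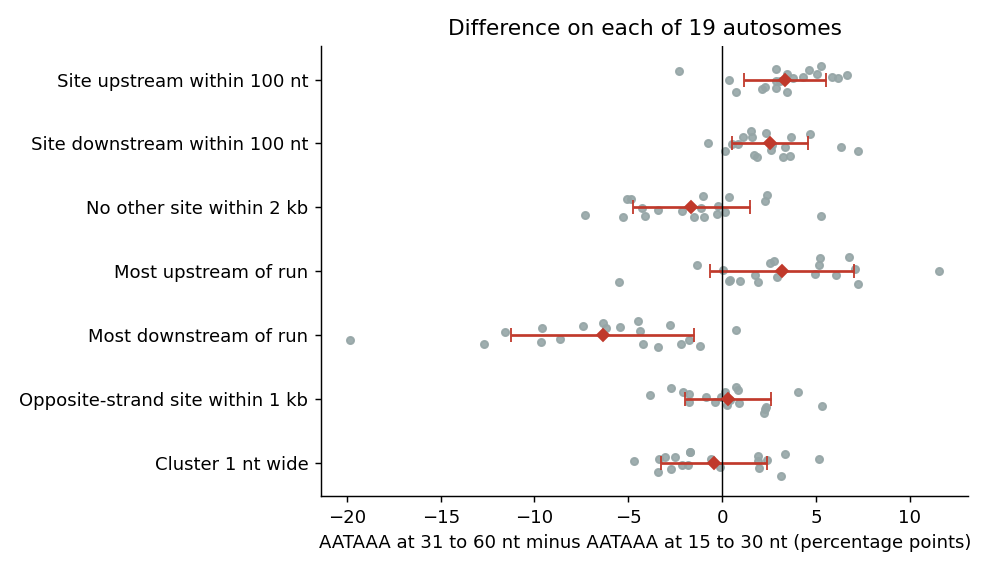
Difference between AATAAA sites at 31 to 60 nt and at 15 to 30 nt in percentage points for 7 measures, with a grey point for each of 19 autosomes and a red diamond and bar for mean and SD. Sites with a neighbour upstream within 100 nt lie above 0 on 18 of 19 autosomes (on 9 of 19 among sites with a signal of their own, not drawn), and sites that end a run lie below 0 on 18 of 19. The value for sites with a signal of their own is shifted by construction, through the removal of sharing sites.

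The sites were found on all 19 autosomes. They made up 7.39% ± 0.54 of AATAAA sites over the 19 autosomes, from 6.25% on chromosome 10 (204 of 3265) to 8.42% on chromosome 2 (437 of 5188). The X chromosome held 156 of 2156, or 7.24%, and chromosome Y 0 of 12. A signal was shared by 2.27% to 10.4% of the sites of an autosome, with a median of 5.34%. Over autosomes the median width ran from 12 to 20.5 nt. Intervals over sites cover counting error only and treat neighbouring sites as independent, which they are not.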

How the data were processed

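Libraries were made by 2P-seq, per the labels' protocols: after RNase T1 trimming, cDNA was primed on the poly(A) tail, size selected, circularised and amplified. Trimmomatic, STAR, bedtools and mm9 are named in the submitters' processing notes. The sources used here do not give how read ends were joined into clusters, which libraries entered, or any filter against priming in A-rich sequence, and such false ends may remain. The authors deposited positions, strands, hexamers and distances in nt, with no value per library.

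Clusters of the mitochondrial chromosome were left out. Starts were read as counted from 0 and are printed from 1. Gaps were measured between cluster edges. Each difference was taken per autosome and tested with a 2-sided sign-flip permutation test (100000 resamples, smallest possible p 1e-05), with Benjamini-Hochberg adjustment over 19 results and a threshold of 0.05. For a recomputed alternative, its p took the place of that of its result among the 19. The adjusted p-values of the 162 alternatives therefore do not account for the number of alternatives. Intervals are 95% Wilson intervals. Both the search for shared signals and the permutation procedure were checked on simulated data. The simulated unshared pairs could not match by their layout, and the added clusters were narrow. That check therefore does not measure false calls of sharing, least of all in wide clusters.

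The sites and measures were chosen with earlier results of these data known. Single sites were named by rule, the 2 widest of each of 3 kinds (shared signal, own signal with or without a neighbour within 2 kb) and the 2 runs with most members, outside chromosome 18. Alternatives were strands, widths, gaps, reaches, tolerances and distance ranges, and the limit of 3 nt and 6 of the values for sites with an own signal were chosen after seeing the data. The tools were matplotlib 3.10.9, scipy 1.17.1, pandas 2.3.3 and numpy 2.4.6 in Python 3.11.15, with seed 1.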

Additional observations from a re-analysis of the deposited data

How the results depend on the processing

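Of 162 recomputed values for 19 results, 130 kept their direction and their side of the threshold. No paired analysis was possible because the catalogue holds no value per library. The share of clusters 1 nt wide cannot be recomputed over clusters wider than 1 nt. All values are differences in percentage points, except widths on the log2 scale, and the causes were not tested. Calls were lost for a site upstream within 100 nt at 31 to 45 nt (0.411), and for a site downstream in clusters of up to 3 nt (1.40). For the most downstream place they were lost at 46 to 60 nt (-3.64) and in clusters of up to 3 nt (-5.15, and 6.003 against ATTAAA). For the most upstream place they were lost on the plus strand (2.89), at 0.5 kb (0.280) and in clusters of up to 3 nt (2.56), and the sign turned at 46 to 60 nt (-2.02). Joining runs at 0.5 kb brought the share standing alone (-4.93), that with an own signal (-2.59), that of far against near sites (-7.22) and the most downstream place against 61 to 100 nt (-10.9) past the threshold.

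Among sites with a signal of their own, a site upstream within 100 nt became -0.335 and the share standing alone against 61 to 100 nt became -6.82, the latter past the threshold. Both values are shifted by construction when sharing sites are set aside, so neither is a separate test. The other turns of sign were of results that had not passed. Of these, 4 values passed with the opposite sign (2.13, 4.49, 8.02 and 5.72, sign-flip permutation, adjusted p = 0.00474, 0.019, 0.00542 and 0.00362). All 4 are of sites with a signal of their own, and setting sharing sites aside removes sites with a neighbour by definition. At 5 kb the share standing alone became 0.924, that with an own signal 2.13, that of far against near sites 0.803, and the most downstream place against 61 to 100 nt 1.50. With an own signal, the share standing alone became 0.891 on the minus strand, 0.73 in clusters of up to 50 nt, 0.368 in clusters wider than 1 nt, 0.0111 with a tolerance of 5 nt, 4.49 at 46 to 60 nt and 1.98 in clusters of up to 3 nt. That of far against near sites became 0.739 on the minus strand and 8.02 with an own signal. The most downstream place against 61 to 100 nt became 0.44 on the plus strand, 0.742 at 46 to 60 nt and 5.72 with an own signal. The share 1 nt wide became 2.29 at 46 to 60 nt, and the width against ATTAAA -0.021 in clusters wider than 1 nt. Read depth per site is unknown, so how it limits width or the finding of neighbours was not analysed here.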

Other observations

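Of the runs that held sites at 31 to 60 nt, 2555 held 1, 148 held 2 and 8 held 3. The named examples with 3 were a run of 26 sites over 9446 nt on chromosome 11 (plus strand) from 77523566 to 77533011, and a run of 24 sites over 11459 nt on chromosome 14 (minus strand) from 105503953 to 105515411. In the first, the 3 sites had AATAAA at 35, 44 and 49 nt and widths of 36, 47 and 25 nt. In the second, they had AATAAA at 60, 33 and 31 nt and widths of 12, 29 and 35 nt. In each run 1 of the 3 shared its signal.

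A cluster of the opposite strand overlapped 105 of the 4838 sites, or 2.17% (95% Wilson 1.796 to 2.62%), against 1.89% at 15 to 30 nt (95% Wilson 1.77 to 2.01%). The plus strand held 48.4% of the sites (95% Wilson 47.0 to 49.8%) and 50.4% of those at 15 to 30 nt (95% Wilson 50.004 to 50.9%). These values were not tested over autosomes.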
